A study of Mus musculus with 2 samples.

Results

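Polycomb repressive complexes were described here through 10 of their subunit genes, Ezh2, Ezh1, Eed, Suz12, Rbbp4, Rbbp7, Jarid2, Rnf2, Bmi1 and Cbx2, in 2 individual mouse cells. The genes were chosen by their subunit roles with results of these same cells known, and every probe set whose only annotated gene symbol was one of them was taken. They came to 31 probe sets of the 45101 on the array, and 10 of 18194 named genes. Because they were selected on a view of the MAS5 signals of both cells, their levels are given as a description, without a test.

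The mice were of the outbred CD1 strain, and the labels name no engineered allele and no drug. Retinas were taken apart with papain, 1 cell was drawn up per capillary, and its cDNA was primed at the poly(A) tail and amplified by 35 cycles of PCR for an Affymetrix mouse array. One was taken at embryonic day 12.5 (E12.5) and the other at postnatal day 0 (P0), the day of birth. Both carry the label ciliary body, the tissue that grows from the rim of the optic cup, a label the submitters gave after the fact from the genes each cell expressed. Below, "at E12.5" and "at P0" mean in that cell, and paired values are given in that order. With 1 cell per age, differences are between these 2 cells, and neither an error between cells nor a p-value can be given. A transcript lost before amplification reads as background, so genes below background are called not detected, never absent, and less RNA per cell cannot be told apart from less of that transcript.

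Polycomb proteins keep developmental genes silent through chromatin. Polycomb repressive complex 2 (PRC2) methylates histone H3 through a catalytic subunit, Ezh2 or its paralog Ezh1, which is active only together with Eed and Suz12; Rbbp4 or Rbbp7 binds histones in the same complex and Jarid2 helps to recruit it. Polycomb repressive complex 1 (PRC1) attaches ubiquitin to histone H2A through Rnf2 with a partner such as Bmi1, and chromobox proteins such as Cbx2 bind the methylated histone H3 left by PRC2. In many tissues Ezh2 is the form of dividing progenitors and Ezh1 that of cells that have stopped dividing, and Ezh2 is well known from retinal progenitors.

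Promoter sequences are printed for 3 PRC2 genes that stand for the patterns described below: Ezh2, detected in the E12.5 cell only, Suz12, detected in the P0 cell only, and Ezh1, detected in neither. Each is the 250 bases before the transcript start in the RefSeq promoter table of mouse build GRCm38.p6, 5′ to 3′ on the strand of the gene. The sequence is that of the reference strain and not of CD1 mice. Capitals mark matches on either strand to CCAAT, the box bound by NF-Y, or to the E2F-type letters TTTCCCGC, TTTCGCGC, TTTGCCGC and TTTGGCGC, named for the E2F factors that switch on S-phase genes.
Ezh2 (chr6:47595031-47595280, minus strand): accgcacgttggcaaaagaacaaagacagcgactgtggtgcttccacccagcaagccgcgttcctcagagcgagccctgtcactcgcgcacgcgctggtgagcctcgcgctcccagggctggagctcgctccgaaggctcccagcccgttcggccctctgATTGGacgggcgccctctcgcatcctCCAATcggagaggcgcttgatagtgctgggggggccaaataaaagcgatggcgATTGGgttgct
Suz12 (chr11:79992856-79993105, plus strand): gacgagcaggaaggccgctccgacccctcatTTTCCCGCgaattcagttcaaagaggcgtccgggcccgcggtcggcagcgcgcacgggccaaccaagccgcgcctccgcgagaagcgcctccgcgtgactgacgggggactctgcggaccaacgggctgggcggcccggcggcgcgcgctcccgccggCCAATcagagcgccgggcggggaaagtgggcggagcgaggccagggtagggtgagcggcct
Ezh1 (chr11:101226464-101226713, minus strand): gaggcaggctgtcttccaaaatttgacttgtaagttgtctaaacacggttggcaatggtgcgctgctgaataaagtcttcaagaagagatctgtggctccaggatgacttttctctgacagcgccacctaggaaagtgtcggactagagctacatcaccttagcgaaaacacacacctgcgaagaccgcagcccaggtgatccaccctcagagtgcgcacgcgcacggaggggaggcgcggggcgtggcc

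Of the 9 members with an entry in that table, Cbx2 being the other, 2 had an E2F-type match within the 300-base window that runs from 250 bases before to 50 after the start. They were Ezh2 and Suz12, the pair with opposite patterns. The Suz12 match begins 219 bases before the start and lies in the stretch above, while that of Ezh2 begins at base 4 after the start and reads gctgcgTTTGGCGCtcggtc with 6 bases on each side. Among all 32851 windows of the table, 2.26% held such a match. A CCAAT match was present for 6 of the 9 members, against 37.4% of all windows, and Ezh2 had 3 of the 10 matches. Members are counted here by gene, and Jarid2 has 2 windows, whereas both percentages are shares of windows. The 2 motifs overlapped in none of the members. The matches describe letters in these windows and say nothing of binding.

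**Figure D1:**
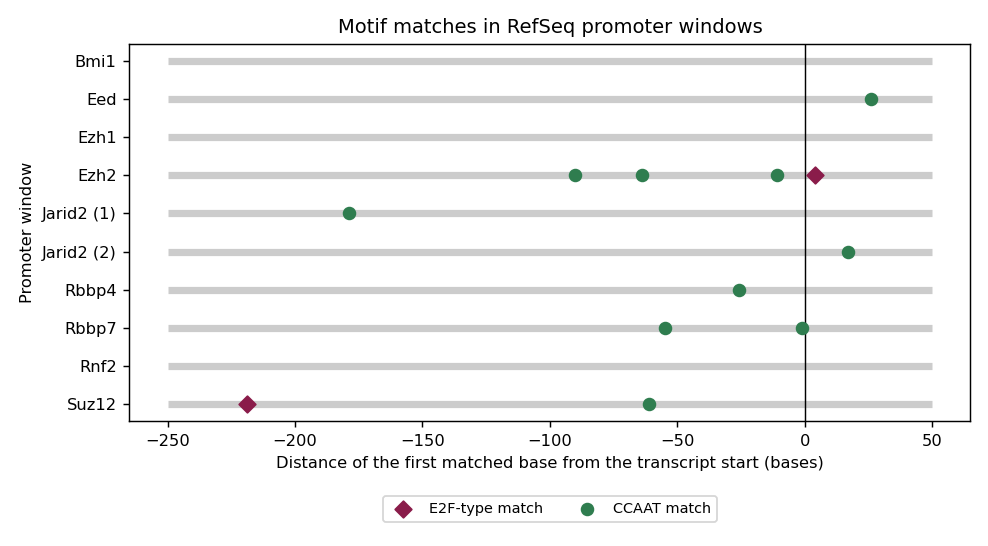
Positions of motif matches in the 300-base promoter windows of 9 members; Jarid2 has 2 windows. The x axis gives the distance of the first matched base from the transcript start in bases, diamonds are E2F-type matches and circles CCAAT matches. Ezh2 carries 3 CCAAT matches and 1 E2F-type match, and the windows of Bmi1, Ezh1 and Rnf2 carry none.

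The level of each probe set was judged against a background limit for its array, the level below which 99% of 175 probe sets lay whose genes have no function known in eye tissue, such as olfactory receptors and keratin-associated proteins. The limit came to 259 at E12.5 and 349 at P0. Where a gene had several probe sets, the one with the highest geometric mean of its signals in both cells represented it, which favours probe sets that read in both. A 4-fold call required a ratio of 4 or more once signals under a limit had been raised to it. A fold against a cell below its limit is a lower bound and is written "at least". Probe sets of the same gene that were above both limits, available for 975 genes, had log2 ratios that scattered with an SD of 0.83. That SD describes disagreement between probe sets of a gene, leaves out those below a limit in either cell and contains no variation between cells.

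Of the 10 genes, 8 were above the limit at E12.5 and 6 at P0, and 5 were above it in both. The share among all named genes was 30.2% at E12.5, 28.4% at P0 and 18.6% in both. In the count of calls, 4 members were at least 4-fold higher at E12.5 and 1 at P0, where 7.30% and 9.23% of all named genes were. Because these contrasts chose the genes, nothing is read from the difference. The median log2 ratio of P0 over E12.5 among the 9 members above a limit in at least 1 cell was -0.89, beside 0.02 among all 7265 such genes. By probe set, 12 of 31 were above the limit at E12.5 and 9 at P0, against 24.0% and 22.4% of all probe sets with 1 symbol. The 4-fold calls fell on 6 probe sets toward E12.5 and 3 toward P0, against 5.68% and 7.21% of all. The 9 members above a limit in at least 1 cell compare with 39.9% of all named genes. These counts rest on choices about the array. With the geometric mean over a gene's probe sets in place of its representative, 5 members were above the limit at E12.5 and 1 at P0, and Ezh2 alone kept its 4-fold call. With casein kinases, which many cells express, left in the background set, the limits were 3178 and 5129, and no member and no gene of the related lists below was called 4-fold higher.

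**Figure D2:**
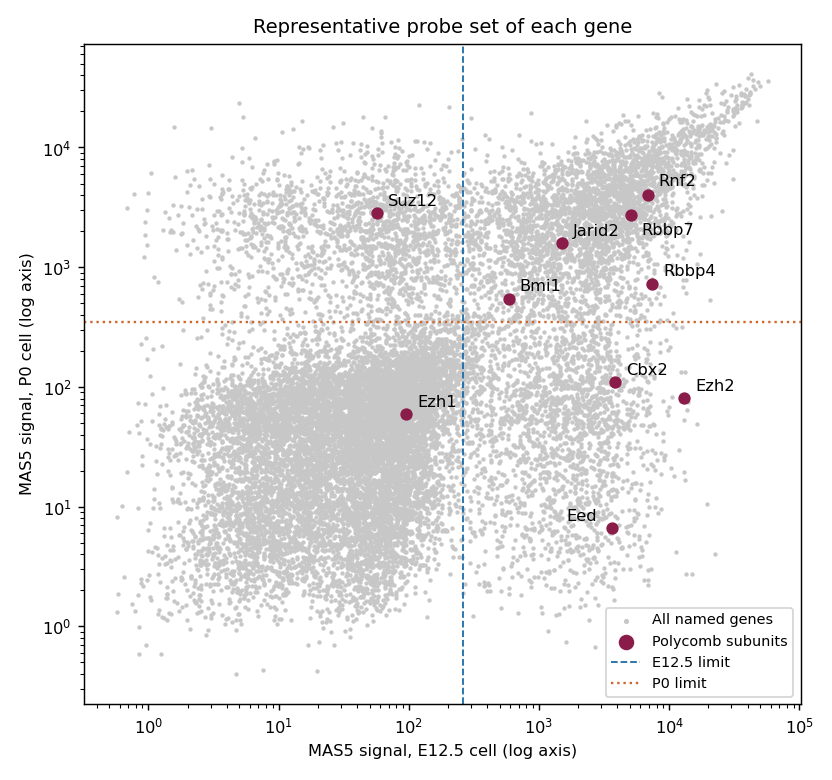
MAS5 signal of the representative probe set of each of 18194 named genes (grey) at E12.5 (x) and at P0 (y), on log axes, with the 10 Polycomb genes in dark red and the background limits as lines. Ezh2, Eed and Cbx2 lie right of the E12.5 limit and under the P0 limit, Suz12 lies in the opposite quadrant, Ezh1 is under both limits, and the other 5 are above both.

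The catalytic subunit Ezh2 was detected at E12.5 and not at P0. Its only probe set, 1416544_at, had a signal of 13083 at E12.5 and 81.2 at P0. The E12.5 value was at least 37.5-fold higher, the highest such bound among the 10 genes. The alternative catalytic subunit Ezh1 was not detected in either cell. Its 4 probe sets ran from 2.27 to 95.3 at E12.5 and from 1.82 to 95.5 at P0, all below the limits. The P0 cell therefore had no PRC2 methyltransferase gene above background on this array, and the E12.5 cell had Ezh2.

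Eed, which binds the methylated histone and stimulates the enzyme, showed the pattern of Ezh2. Its probe set 1448653_at read 3624 at E12.5 and 6.64 at P0, at least 10.4-fold higher in the former. The other Eed probe set, 1453830_at, was below the limit in both cells, at 4.38 and 9.22. With the geometric mean over both probe sets Eed lay below both limits, so its call rests on 1 probe set.

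Suz12, the scaffold that joins the enzyme to the histone-binding subunits, was the only member with a higher signal at P0 past 4-fold. Its probe set 1420022_s_at read 57.2 at E12.5 and 2850 at P0, at least 11.0-fold higher at P0. Probe set 1420021_s_at read 2.61 and 1141 (at least 4.41-fold), and 1449661_at read 0.744 and 1085 (at least 4.19-fold). These 3 probe sets are set apart because they passed a limit, and they did so at P0 only. They are readings of the same cells and not replicates. The other 3 did not detect the gene in either cell: 1420020_at read 5.47 and 79.9, 1427253_s_at 31.5 and 2.81, and 1452364_at 23.5 and 3.61. The last 2 were designed on the same sequence record, different from that of 1420020_at, 1420021_s_at and 1420022_s_at, which share another. The geometric mean over all 6 probe sets lay below both limits.

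The 3 core genes Ezh2, Eed and Suz12 were therefore not above background together in either cell. At E12.5 Ezh2 and Eed were detected and Suz12 was not, and at P0 Suz12 was detected and Ezh2 and Eed were not. Detection rests on 1 of 2 probe sets for Eed and on 3 of 6 for Suz12. A gene not detected may still have been expressed, so a split of the core between the cells is not shown.

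Rbbp4 and Rbbp7, close paralogs that bind histones in PRC2 and in several other complexes, differed in their pattern. The Rbbp4 probe set 1434892_x_at read 7387 at E12.5 and 728 at P0, a 10.1-fold difference with both cells above the limit. Of the other Rbbp4 probe sets, 1454875_a_at read 1909 and 126 (at least 5.47-fold) and 1454791_a_at 1076 and 237 (at least 3.08-fold), while 1456260_at was below both limits at 45.0 and 3.78. The 3 above a limit were lower at P0. The representative one is of the _x_at kind, whose probes can match other transcripts, and with the geometric mean over the 4 probe sets the log2 ratio was -1.38, short of 4-fold.

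Rbbp7 was detected by both of its probe sets in both cells. Probe set 1456227_x_at read 5085 at E12.5 and 2744 at P0, and 1415775_at read 3462 and 2198. The differences of 1.85-fold and 1.58-fold, a log2 ratio of -0.89 and -0.66, were near or within the SD of 0.83 between probe sets of a gene. Rbbp7 was the only member with every probe set above background in both cells.

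Jarid2, a DNA-binding cofactor of PRC2, had nearly the same signal in both cells. Probe set 1450710_at read 1512 at E12.5 and 1588 at P0. The 2 other probe sets, built on the same sequence record, were below the limits in both, at 62.0 and 11.3 and at 99.9 and 28.4. Detection of Jarid2 thus rests on 1 of 3 probe sets, and the log2 ratio of 0.07 was far smaller than the spread between probe sets.

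Among the PRC1 subunits, the ubiquitin ligase gene Rnf2 and its partner Bmi1 were detected in both cells. The Rnf2 probe set 1424873_at read 6830 at E12.5 and 4024 at P0, a 1.70-fold difference. A further Rnf2 probe set on the same sequence record, 1451519_at, read 2997 and 5.39, at least 8.58-fold higher at E12.5. These probe sets agree that Rnf2 was present at E12.5 and disagree on P0. The remaining 3 were below the limits, from 54.1 to 181 at E12.5 and from 7.66 to 261 at P0.

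Bmi1 read 585 at E12.5 and 548 at P0 with 1417493_at. The signals are equal within the spread between probe sets. The other Bmi1 probe set, 1448733_at, was below both limits at 21.3 and 1.97.

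Cbx2, which binds the histone mark made by PRC2 and compacts chromatin, was detected at E12.5 only. Probe set 1434116_at read 3858 at E12.5 and 109 at P0, at least 11.0-fold higher at E12.5. The second, 1422059_at, was below both limits at 87.5 and 118. With the geometric mean over both, the log2 ratio was -0.73 and the call was lost.

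**Figure D3:**
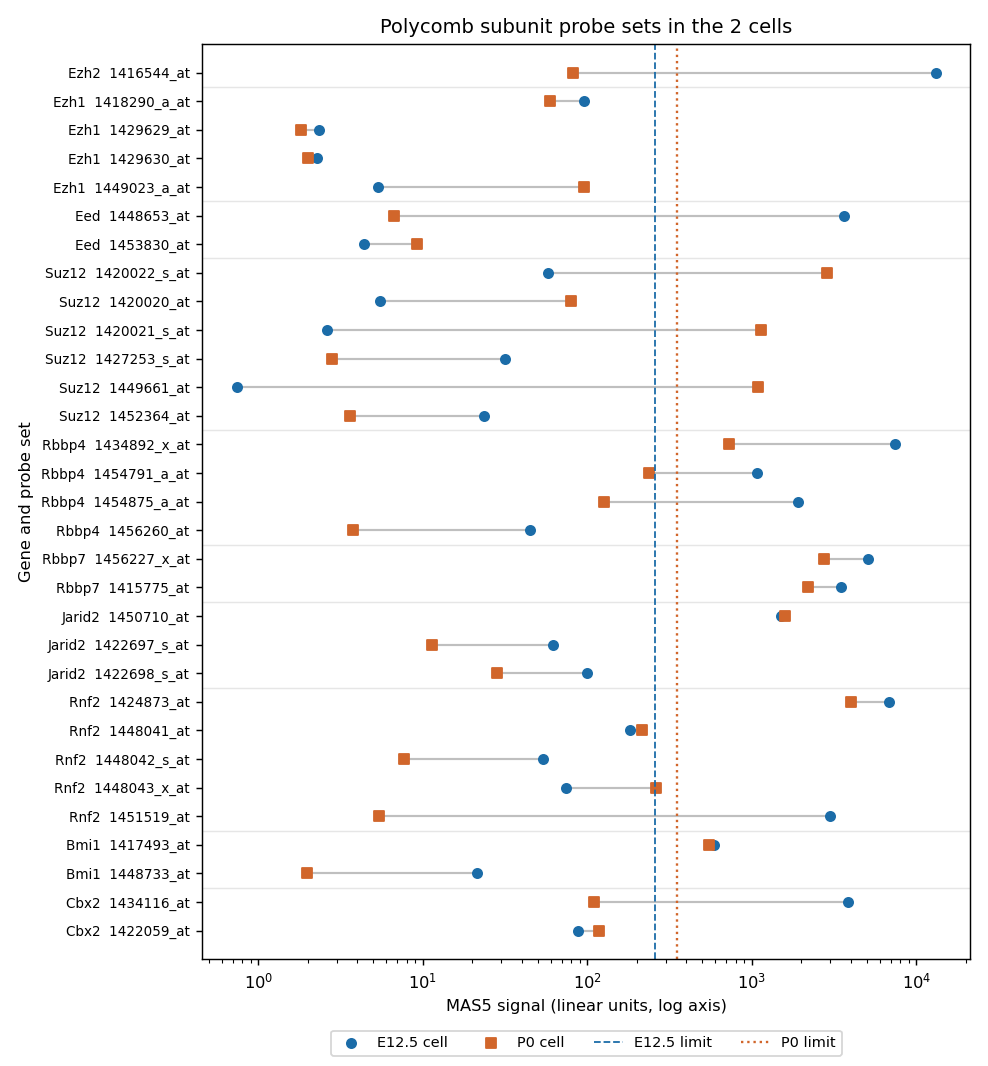
MAS5 signal (x, log axis) of all 31 probe sets of the 10 genes (y) at E12.5 (circles) and at P0 (squares), joined by a line, with the limit of each array. Of the 31, 15 were above a limit in at least 1 cell; the Suz12 lines that cross the limits run toward P0 and those of Ezh2, Eed, Rbbp4, Rnf2 and Cbx2 toward E12.5.

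Disagreement between probe sets touched most members. Of the 31 probe sets, 16 were below the limit in both cells, and 8 of the 10 genes had at least 1 such probe set, Ezh2 and Rbbp7 being the others. Signals at the ends of the beta-actin transcript differed between the arrays, with a ratio of the 3′ to the 5′ control probe set of 6.17 at E12.5 and 2.20 at P0, while for Gapdh it was 1.06 and 1.43. The part of transcript position in the members' signals was not tested.

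Accessory subunits of PRC2 were also divided between the cells. Of 5 genes, 3 were above the limit at E12.5 and 2 at P0, and 1 was at least 4-fold higher at E12.5 and 0 at P0. For this list and those below, 30.2% and 28.4% of all named genes were above the limits. The shares called 4-fold higher were 7.30% and 9.23%. Epop, which links PRC2 to elongin, read 2836 at E12.5 and 4.22 at P0 (at least 8.12-fold). Aebp2, a zinc finger cofactor, was above both limits with its representative probe set (1014 and 1295), while another read 26.7 and 3731, at least 14.4-fold higher at P0. Of the Polycomb-like proteins, which bring PRC2 to CpG islands, Phf1 was above the limit at E12.5 only (890 and 34.5, short of 4-fold), and Phf19 was below both limits. The probe sets of Mtf2, also a Polycomb-like protein, ran in opposite directions. Its representative read 171 at E12.5 and 820 at P0 and a second 183 and 709, both short of 4-fold, whereas the remaining probe set above a limit read 2349 and 21.7, at least 6.72-fold higher at E12.5. Neither Aebp2 nor Mtf2 therefore has a settled direction, and the list's counts, as those of the lists below, are of representative probe sets. The list had a median log2 ratio of -0.50 over the 4 genes above a limit.

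Of 22 other PRC1 genes, 12 were above the limit at E12.5, 11 at P0 and 8 in both, and 3 were at least 4-fold higher at E12.5 and 2 at P0. Among all named genes 7.30% and 9.23% were, so the count at P0 was near that share. The median log2 ratio over the 15 above a limit was -0.37. Ring1, the paralog of Rnf2, was similar in both cells (1976 and 2348), as was the chromobox gene Cbx6 (914 and 672). The transcriptional corepressor gene Bcor read 1226 and 1197 with its representative probe set. Another 2 of its probe sets were above the limit at E12.5 only, at 1102 and 28.4 (at least 3.15-fold) and at 873 and 266 (at least 2.50-fold). Cbx7 and Cbx8 were below both limits. Cbx6 was thus the only one of these 3 chromobox genes detected at P0, where Cbx2 was not detected either.

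The Pcgf genes, whose products pair with Rnf2 or Ring1 and sort PRC1 into variants, differed among themselves. Pcgf3 (1177 and 909) and Pcgf6 (1172 and 1471) were present in both cells, as Bmi1, another gene of the family, was. Pcgf5 read 33.5 at E12.5 and 2012 at P0 (at least 7.77-fold), and Pcgf2 153 and 823 (at least 3.18-fold). Scmh1, a sex comb protein gene, was 5.53-fold higher at P0 (295 and 1629).

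The 3 genes called higher at E12.5 were Auts2, E2f6 and Kdm2b. Auts2, an activator found in a PRC1 variant, read 4862 at E12.5 and 208 at P0 (at least 13.9-fold) with its representative probe set, and 2 others were also above the limit at E12.5 only. E2f6, a repressive E2F factor, read 2910 and 20.1 (at least 8.33-fold), and Kdm2b, which binds CpG islands, 1868 and 36.5 (at least 5.35-fold). The polyhomeotic genes Phc1 (7246 and 2073, 3.50-fold) and Phc2 (4603 and 1288, 3.58-fold) were higher at E12.5 but short of 4-fold. A second Phc2 probe set (3616 and 822) reached 4.40-fold, and Phc3 was above the limit at P0 only (7.83 and 530). Yaf2, which codes for a PRC1 adaptor, was above the limit at E12.5 only (1322 and 28.1, at least 3.79-fold). With arrays scaled to the hybridisation spike-ins, calls in the list became 6 at E12.5 and 1 at P0.

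Most of the histone demethylase and trithorax genes, which oppose Polycomb, were detected in both cells, but the enzymes among them were divided. Kdm6b, Kmt2b and Kmt2c were above both limits, Kdm6a and Kmt2a were above the limit at P0 only, and Kmt2d at E12.5 only. The others detected in both were Ash2l, Dpy30, Men1, Rbbp5 and Wdr5. Of 11 histone demethylase and trithorax genes, 9 were above the limit at E12.5 and 10 at P0, with 8 in both. At least 4-fold higher were 2 at E12.5 and 3 at P0, against 7.30% and 9.23% of all named genes. The demethylase gene Kdm6a, which removes the PRC2 mark, read 112 at E12.5 and 2278 at P0 (at least 8.80-fold), while its relative Kdm6b read 3566 and 1172 (3.04-fold higher at E12.5). The trithorax methyltransferases formed opposite pairs. Kmt2a (236 and 2505, at least 9.68-fold) and Kmt2c (663 and 4968, 7.49-fold) were higher at P0, and Kmt2b (6610 and 1349, 4.90-fold) and Kmt2d (2854 and 183, at least 8.17-fold) at E12.5. The shared scaffold genes Wdr5 (1904 and 2529), Rbbp5 (1814 and 2686) and Ash2l (640 and 590) were within 4-fold, although a second Ash2l probe set was above the limit at E12.5 only (378 and 11.5). Over its 11 genes the log2 ratio had a median of 0.57. With the geometric mean over probe sets the list had 1 call at E12.5 and 0 at P0.

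Among 6 deubiquitinase genes that reverse the PRC1 mark or their cofactors, 1 was above the limit at E12.5 and 2 at P0. At least 4-fold higher were 0 and 1, against 7.30% and 9.23% of all named genes. Bap1, the catalytic subunit of a Polycomb deubiquitinase, was present in both cells (4762 and 3173). Its cofactors Asxl1, Asxl2 and Asxl3, and the deubiquitinase gene Mysm1, were below both limits. Usp16 read 164 at E12.5 and 1945 at P0 (at least 7.51-fold). The median log2 ratio over the 2 genes above a limit was 1.16.

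**Figure D4:**
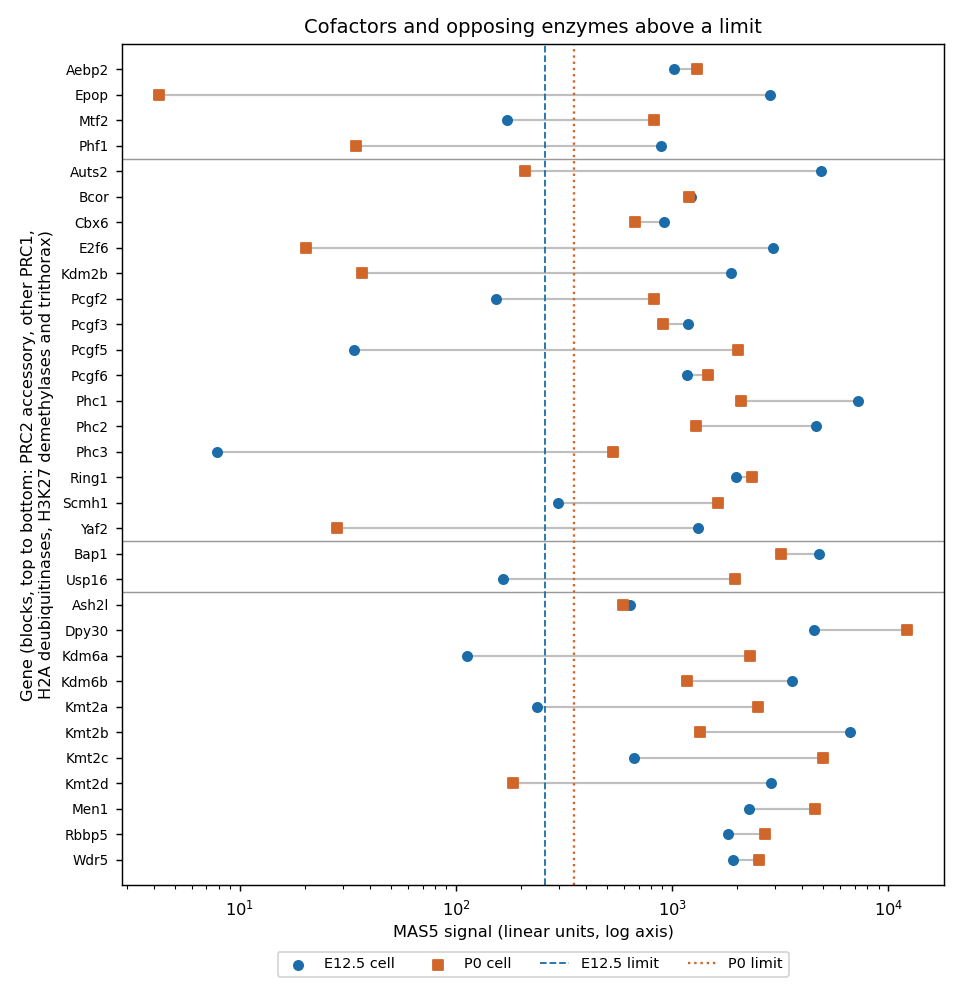
MAS5 signal (x, log axis) of Polycomb cofactors and of the enzymes that oppose them (y), for genes above a limit in at least 1 cell; circles are the E12.5 cell, squares the P0 cell, and dashed and dotted lines the limits. Kdm6a, Kmt2a, Kmt2c, Pcgf5 and Usp16 lie higher at P0, and Auts2, E2f6, Kdm2b, Epop, Kmt2b and Kmt2d at E12.5.

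Rbbp4 and Rbbp7 also serve in deacetylase and chromatin assembly complexes. Most of the partners measured were above the limit in both cells. The chromatin assembly gene Chaf1b (signals of 12.5 and 104), Mbd2 (18.5 and 13.5) and Sin3a (27.6 and 91.7) were below it in both. Of 17 genes, 14 were above the limit at E12.5 and 11 at P0, with 11 in both. At least 4-fold higher were 2 at E12.5 and 0 at P0, against 7.30% and 9.23% of all named genes. The deacetylase genes Hdac1 (4802 and 4386) and Hdac2 (10026 and 5135) and the remodeler gene Chd4 (8300 and 2152) were above the limits in each cell. The genes Mbd3 (3382 and 28.2, at least 9.68-fold) and Mta3 (3172 and 78.7, at least 9.08-fold), both of the NuRD complex, were detected at E12.5 only. So was Mta2 (1163 and 3.67, at least 3.33-fold), while Mta1 was 2.51-fold higher at P0 (1771 and 4446). The median log2 ratio of the 14 genes above a limit was -0.06.

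Classic targets of Polycomb silencing were below the limit in both cells, with the exception of 1 gene. Of 33 Hox genes with Cdkn2a and Cdkn2b, 35 genes in all, 1 was above the limit at E12.5 and 0 at P0, against 30.2% and 28.4% of all named genes. The one was Hoxc6, with a signal of 263 just over the E12.5 limit of 259, and 138 at P0. Cdkn2a, an inhibitor of the cell cycle and a well known target of Bmi1, read 22.3 at E12.5 and 86.6 at P0. With the limit at the 95th percentile, 7 of the 35 were above it at E12.5 and 3 at P0. The eye and forebrain do not normally express Hox genes.

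Many replication genes were higher at E12.5, as Ezh2, Eed and Rbbp4 were. Of 21 S-phase genes, 15 were above the limit at E12.5 and 5 at P0, with 4 in both. At least 4-fold higher were 10 at E12.5 and 0 at P0, against 7.30% and 9.23% of all named genes. The median log2 ratio over 16 genes was -2.40. The 10 were Ccne1, Cdc6, Lig1, Mcm2, Mcm3, Mcm4, Mcm5, Mcm6, Rfc3 and Rfc4, from 4.05-fold for Mcm3 to at least 38.0-fold for Mcm2, which codes for a subunit of the replicative helicase. Pcna (10650 and 6034, 1.77-fold) and Mcm7 (13201 and 4942, 2.67-fold) were above both limits and short of 4-fold. Another Mcm7 probe set read 11475 and 343, at least 32.8-fold higher at E12.5. Gins2 was above the limit at P0 only (134 and 599). Rrm1, for a subunit of ribonucleotide reductase, read 2116 and 1720 with its representative probe set, and 70.0 and 1259 (at least 4.86-fold higher at P0) with another. The activating factors E2f1, E2f2 and E2f3 were below the limit in both cells. The part of the cell cycle in the levels of the Polycomb genes was not tested.

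**Figure D5:**
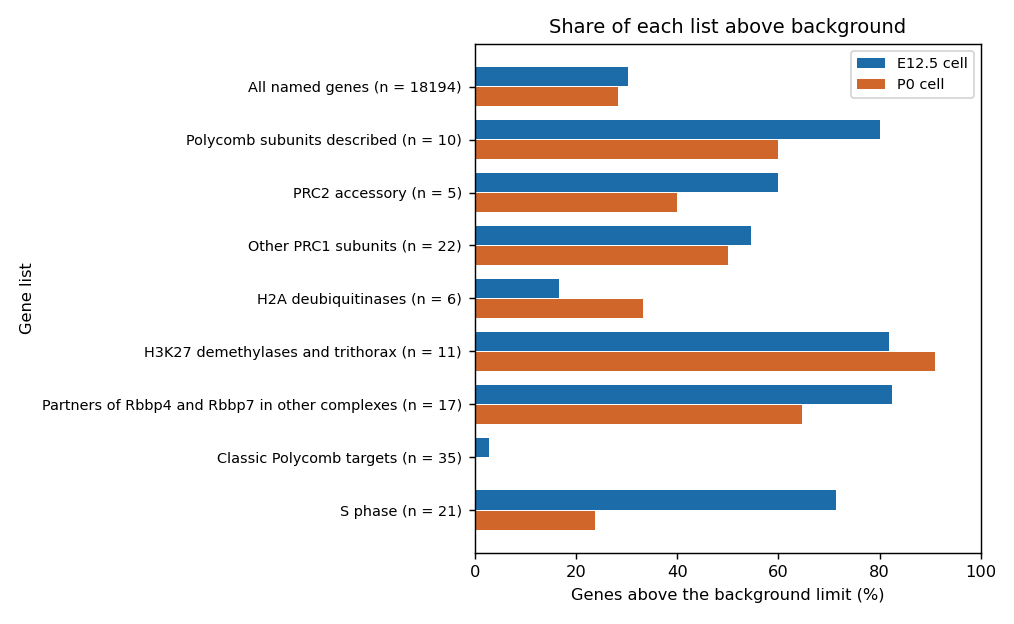
Percent of genes above the background limit (x) at E12.5 (blue) and at P0 (orange) for all named genes, the 10 Polycomb subunits and 7 lists of related genes (y), with the number of genes measured in each. The S-phase list differs most between the cells (71.4% and 23.8%), and the Hox and Cdkn2 list stays under 3% in both.

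The label was given from the genes these cells expressed, so markers from the same arrays describe the cells and cannot check it. Of 12 ciliary margin markers, 9 were above the limit at E12.5 and 7 at P0, among them Zic1 and Zic2 in both. Msx1 and Bmp4 were below it in both. Bmp7 was also below the limit at E12.5, and Otx1, Gja1 and Mecom at P0. All 9 retinal progenitor markers were detected at E12.5 and 8 at P0. Both lists leaned toward E12.5, with 5 of the 12 ciliary margin and 4 of the 9 progenitor markers at least 4-fold higher there and 1 of each list at P0. Pax6, a master gene of eye progenitors, was 15.4-fold higher at E12.5. Lhx2, the progenitor marker called at P0, was 7.28-fold higher there, and Sox2 was similar in both cells (10369 and 11739). The part of these differences between the cells in the Polycomb levels was not tested. None of the photoreceptor (4), ganglion cell (4), lens (4), erythroid (3) or microglial (4) markers was above a limit in either cell. Of 5 mesenchymal markers, Col1a2 and Pdgfra were above the limit at P0 and 0 were at E12.5, the summed signal being 5946 and 289, and Twist1, Foxc1 and Col1a1 were below both limits. Of 4 vascular markers, Rgs5 was above the limit at P0 and 0 were at E12.5, with summed signals of 1224 and 194. These were higher in the same cell as Suz12, Kdm6a, Kmt2a and Usp16, and their part in those results was not tested.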

How the data were processed

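The array signals of 2 cells were analysed, 1 at E12.5 and 1 at P0. The authors deposited 1 linear signal intensity for every probe set of a cell. They normalised with MAS5, per the submitters' processing notes; its settings are not known here. The mean over probe sets, trimmed by 2% on either side, was 500.0 for each cell, so each array had been scaled on its own. Depth in reads does not apply, and the number of arrays limits the precision. GEO's annotation of the array gave 1 symbol for 34958 of 45101 probe sets, several for 932, and did not list 9211; 34754 symbols were updated by gene identifier through RefSeq (GRCm38.p6). No member was on a probe set with several symbols. The array files name no build, so only the promoter windows, from RefSeq, carry coordinates.

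The limit was the 99th percentile over 10 families: zona pellucida proteins, prolactin relatives, protamines, caseins, intestinal defensins, major urinary proteins, keratin-associated proteins, and receptors for odours, taste and pheromones. The naming of caseins left out 32 probe sets of casein kinases, with which the limits would be 3178 and 5129. The members, the lists and the rules were chosen with earlier results of these data known. Genes named were the members, the listed genes at least 4-fold higher in 1 cell and at most 6 of the brightest others per list. Cbx6, Cbx7, Cbx8, Pcgf2, Pcgf3, Phc3, Phf19, Asxl1, Asxl2, Asxl3 and Mysm1 were named outside that rule, after their values were seen. So were Cdkn2a, Chaf1b, Mbd2, Mta2, Sin3a, E2f1, E2f2, E2f3 and the markers. The scoring code was run on simulated arrays, both drawn from the E12.5 signals with the same limit, with changes planted in genes far above it. That was a check of the code and does not bear on how sure the calls are in these cells. No test between groups was possible. Alternatives changed the percentile, the casein kinases, the filter, a pseudocount of 100, the normalization (quantile or spike-ins), the geometric mean over a gene's probe sets and the exclusion of _x_at and _s_at probe sets. Python 3.11.15, numpy 2.4.6 and pandas 2.3.3 were used.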

Additional observations from a re-analysis of the deposited data

How the results depend on the processing

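Of the counts for the 10 genes, those at E12.5 and P0 above background (8 and 6) and 4-fold higher (4 and 1) kept within 1.5 times of their value with quantile normalisation, spike-in scaling, the limit at the 95th percentile and without _x_at and _s_at probe sets, and the calls did so without a filter and with the pseudocount. With the geometric mean over probe sets, 5 genes were above background at E12.5 and 1 at P0, and 1 and 0 were 4-fold higher; the call left was Ezh2, which has a single probe set. When casein kinases were left in the background set, 0 genes were above background at P0 and 0 were 4-fold higher in either cell. In that setting 7 probe sets at E12.5 and 0 at P0 were above the limit in place of 12 and 9. Suz12, Jarid2, Bmi1 and Ezh1 were then below both limits, and Cbx2, Eed and Rbbp7 had no defined ratio. Only Ezh2, Rbbp4 and Rnf2 kept a ratio, and 5 and 24 of all genes were called higher at E12.5 and P0. A limit at the 95th percentile put 16 probe sets above background at P0. Spike-in scaling shifted the median log2 ratio of all genes to -0.77 and the share of calls higher at P0 from 55.9% to 35.3%, a share that was 49.9% with the 95th percentile, 48.7% without _x_at and _s_at probe sets, 50.2% with the pseudocount and 48.8% with no filter. The Jarid2 ratio changed sign between settings (-0.72 with spike-ins), so it has no direction, while Suz12 stayed higher at P0 in the 6 settings that gave it a value (log2 ratio from 2.51 to 5.64). Over all named genes, 1328 and 1680 were called higher at E12.5 and P0; the counts were 2021 and 1102 with spike-ins, 2009 and 2000 with the 95th percentile, 4115 and 3924 without a filter, and 700 and 862 with the geometric mean over probe sets. The median of the members lay between -1.68 and -0.76, except with casein kinases kept, where it was -0.20. That value includes Cbx2, Eed and Rbbp7, which had no defined ratio in that setting. Alternatives for the lists of related genes were added after seeing the data. No paired analysis was possible because each age has 1 cell, and no replicate could be left out.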

Other observations

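RNAs and enzymes that work beside Polycomb were looked at after their values had been seen, so the choice carries no weight. Xist, the RNA that coats the inactive X chromosome and on which both Polycomb complexes gather, was above the limit at P0 with each of its 3 probe sets and at E12.5 with 0. Probe set 1436936_s_at read 60.6 at E12.5 and 13314 at P0, 1427262_at read 15.0 and 1408, and 1427263_at read 5.03 and 551. Tsix, the antisense gene, was below both limits (3.29 and 14.0), and strand was not separated for it here. Among Y-linked genes, Kdm5d was above the limit at E12.5 with 1 of 3 probe sets (1424903_at, 685 against 1.29 at P0), and none of the 4 Uty or 2 Eif2s3y probe sets was above a limit in either cell. The labels used here do not give the sex of the animals. Among the Polycomb genes described above, Kdm6a, Rbbp7 and Bcor are X-linked.

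Enzymes of DNA methylation, a silencing route apart from Polycomb, were split between the cells. Uhrf1, which brings maintenance methylation to replicated DNA, was above the limit at E12.5 with both probe sets (2831 and 449) and at P0 with 0 (7.52 and 17.5). Dnmt3b was above it at E12.5 with both probe sets (758 and 2518) and at P0 with 0. Dnmt3a was above the limit with 2 of 5 probe sets in each cell, and 1423063_at read 284 at E12.5 and 2665 at P0. The maintenance enzyme Dnmt1 was above the limit in both cells with 2 of 3 probe sets. Probe set 1422946_a_at read 395 and 854. Probe set 1435122_x_at read 408 and 354, the latter just over the P0 limit of 349. Ehmt1 (3152 and 4694), a methyltransferase of another repressive histone mark, was above the limits in both.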
